A study of Rattus norvegicus with 16 samples.

Results

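The enzymes that build and trim the sugar chains of proteins and lipids in the endoplasmic reticulum (ER) and the Golgi apparatus were read in the prefrontal cortex (PFC) of rats killed at the end of a footshock (FS) session and of control rats. Members were all genes whose single symbol on the array begins with Man1 or Man2, or with Alg, Mgat, B4galt, B3galt, B3gnt, St3gal, St6gal, St8sia, Fut or Galnt followed by a digit, and whose mean over the 16 arrays was above 4 on the log2 scale. The symbols fit 88 genes, and 64 of them passed, of 10423 genes tested. The other 24 had no probe set above this minimum. They included B4galt1 (mean of 3.51), Alg6 (3.56), B3gnt6, the fucosyltransferase genes Fut1, Fut2, Fut4 and Fut7, St8sia2, St8sia6 and Mgat4d. Just inside the limit lay B3gnt7 (4.22), Alg1 (4.47) and Galnt6 (4.60), and just outside it lay B3gnt4 (3.89), Galnt10 (3.84) and Alg13l1 (3.62).

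The FS group had 8 arrays of adult male Sprague-Dawley rats given 40 min of FS at 0.8 mA, with 20 min of actual shock and random pauses of 2 to 8 s, and killed directly afterwards. The Control group had 8 arrays of rats of the same strain and sex that stayed in the home cage, so the shocks cannot be told apart from the handling and the apparatus. Each array is 1 labelled replicate, and the study counts its groups in animals. Values are log2 intensities on Affymetrix Rat Gene 1.0 ST arrays, normalised together by RMA (robust multi-array average), so that a difference of 1 is a doubling and the values do not show a shift that most genes share. The number of arrays limits the precision.

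N-glycans begin as a lipid-linked oligosaccharide, which the Alg enzymes build on dolichol at the ER membrane and which is moved as a block to asparagines of new proteins. Mannosidases then trim it, and in the Golgi the Mgat, galactosyl-, fucosyl- and sialyltransferases extend and cap the branches, while Galnt enzymes start the mucin-type O-glycans on serine and threonine. In brain the sialyltransferases also make gangliosides, the sialic acid-bearing lipids of neuronal membranes, and the polysialic acid of the neural cell adhesion molecule.

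None of the 64 genes differed between FS and Control arrays past the adjusted threshold, and most of the differences were small and negative. With limma, 0 genes had an adjusted p under 0.05, the smallest adjusted p being 0.503, against 0% of all 11352 probe sets tested and a smallest adjusted p of 0.495. At an unadjusted p under 0.05 in limma, 7 genes were lower in FS rats, among probe sets of which 5.67% were called lower. They were Alg3, Alg12, Man1b1, Man1c1, Man2c1, B4galt3 and B4galt7. A single gene, Galnt6, was higher, where 3.65% of all probe sets were called higher. Over all probe sets this was 414 higher and 644 lower, and with each array centred on its median 533 higher and 549 lower, while these genes then had 1 higher and 6 lower. The difference was below 0 in 43 of the 64 genes and in 57.5% of all probe sets. The median difference was -0.05 in these genes and -0.02 over all probe sets, and the median SE of a difference was 0.08 and 0.07. In all 64 genes the FS and Control values overlapped, where 0.0617% of all probe sets had groups that did not. A difference above 0.2 in size was seen in 9 genes (14.1%) and 10.3% of all probe sets. No gene had all 8 FS arrays below or above the Control mean, where 2.11% of all probe sets had all below and 2.23% all above.

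**Figure D1:**
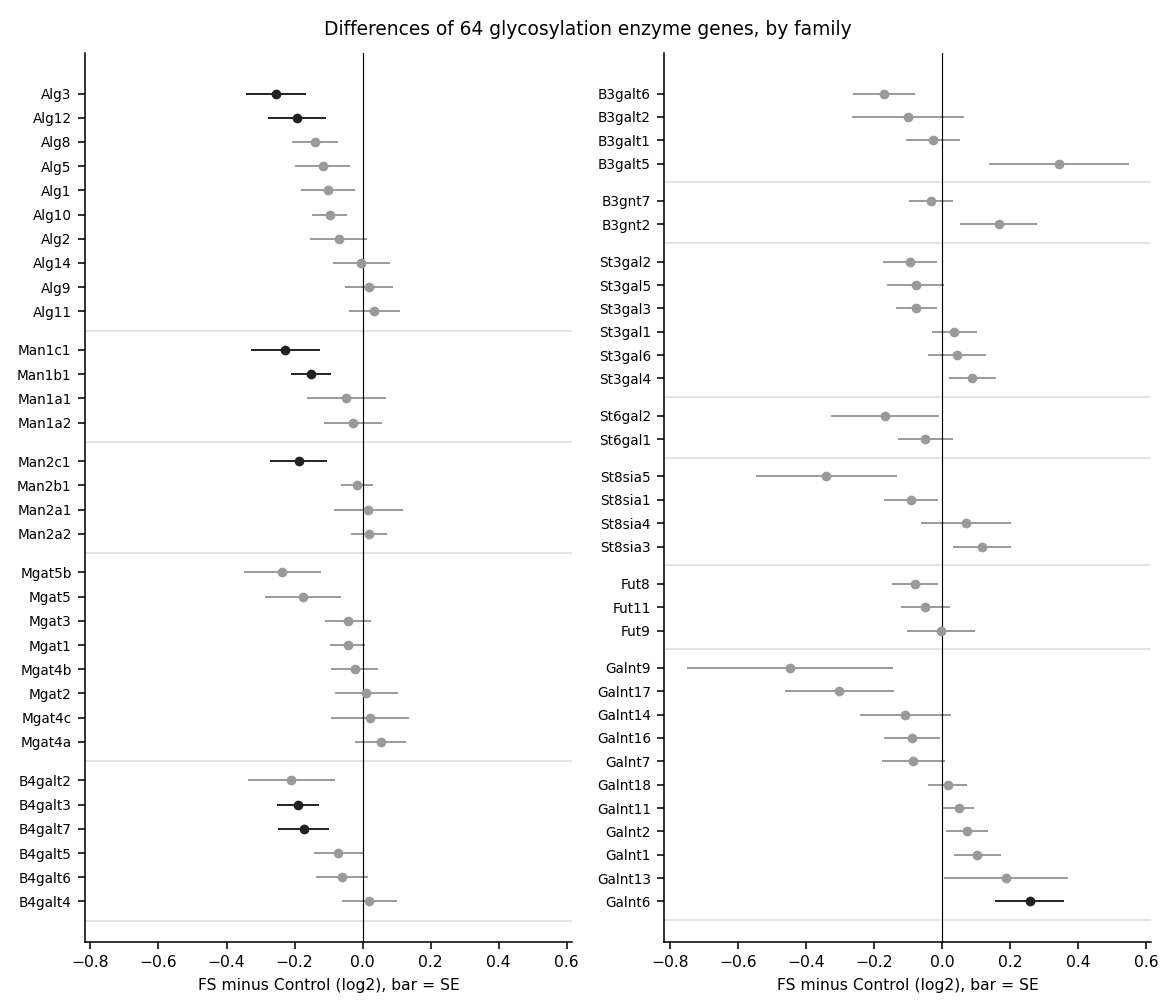
Difference of FS minus Control (log2) on the horizontal axis for each of the 64 genes, grouped by family and ordered within it, with bars for the SE from limma. Black points are the 8 genes with an unadjusted p under 0.05, of which 7 lie left of 0 and only Galnt6 lies right of it.

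Tissue markers differed between the arrays, and these values stand beside everything that follows. The score of a marker list is the mean over its genes of the log2 value minus that gene's mean over the arrays. The 15 measured of 18 markers of striatal medium spiny neurons, a cell type of the neighbouring striatum, all had positive differences, with scores of -0.92 to 1.30 in FS and -0.90 to 1.59 in Control arrays. The highest score was that of Control 6. All 18 measured of 19 myelin markers were positive too, with scores of -0.02 to 0.34 in FS and -0.60 to 0.21 in Control arrays. The 9 measured of 11 markers of cortical glutamatergic neurons were all negative, with scores of -0.94 to 0.35 in FS and -0.78 to 0.48 in Control arrays. The tissue label fits Slc17a7, the vesicular glutamate transporter of cortical projection neurons, which lay between 9.48 and 10.95 in FS and between 9.75 and 11.01 in Control arrays. Drd1, a defining striatal receptor, reached 8.45 in FS and 8.63 in Control arrays. The 9 measured of 10 markers of meningeal fibroblasts were all positive as well, with a score of 0.19 ± 0.68 in FS and -0.19 ± 0.36 in Control arrays (SD), highest in FS 3 (1.48) and FS 6 (0.64). Smooth muscle and pericyte markers, 4 of 6 positive, had scores of -0.27 to 1.23 in FS and -0.29 to 0.11 in Control arrays, highest in FS 6. The scores of astrocytes, microglia and brain endothelium differed by 0.05, -0.003 and -0.03, and of the choroid plexus list 1 of 6 markers was measured. No member is in a marker list. In whole tissue, fewer cells of a type and less RNA per cell cannot be told apart.

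The Alg family, which assembles the lipid-linked donor, had 8 of 10 genes with a difference below 0 and a median of -0.10. Alg3, which adds a mannose on the lumenal side of the ER membrane, had the lowest, with values of 7.96, 8.28 and 8.76 (lowest, median, highest) in FS and 8.50, 8.55 and 8.66 in Control arrays. The Control arrays lay close together and 7 of 8 FS arrays lay below all of them, while FS 1 lay above all of them. The SD was 0.26 in FS and 0.05 in Control arrays, and the difference was -0.26 ± 0.09 (SE; limma p = 0.0102, adjusted p = 0.509; exact two-sided permutation p = 0.0177). Alg12, another lumenal mannosyltransferase, had values of 5.55, 5.89 and 6.11 in FS and 5.91, 5.99 and 6.29 in Control arrays. Its FS values spread downwards from a shared upper range, and the difference was -0.19 ± 0.09 (limma p = 0.0371, adjusted p = 0.523; exact permutation p = 0.0539). Alg9, which acts in the same stretch of the pathway, had a difference of 0.02 ± 0.07. The remaining genes ran from the glucosyltransferase gene Alg8 (-0.14 ± 0.07) to Alg11 (0.03 ± 0.07), whose product adds mannose on the cytosolic side. In between lay Alg5, for the enzyme that makes dolichol-linked glucose (-0.12 ± 0.08), Alg1 (-0.10 ± 0.08) and Alg2 (-0.07 ± 0.08), both cytosolic mannosyltransferases, the glucosyltransferase gene Alg10 (-0.10 ± 0.05) and Alg14 (-0.004 ± 0.08), which anchors the enzyme for the second sugar.

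Class I mannosidases, which remove mannose from the transferred chain, had 4 of 4 differences below 0, with a median of -0.10. Man1b1, the ER mannosidase that marks slowly folding glycoproteins, had values of 6.54, 6.61 and 6.84 in FS and 6.65, 6.84 and 6.97 in Control arrays. Most FS arrays lay below the lowest Control array, which was Control 6, and 3 lay within the Control range. The difference was -0.15 ± 0.06 (limma p = 0.0185, adjusted p = 0.514; exact permutation p = 0.0185). The Golgi enzyme gene Man1c1 had values of 7.61, 7.94 and 8.35 in FS and 7.90, 8.16 and 8.37 in Control arrays, a difference of -0.23 ± 0.10 (limma p = 0.0385, adjusted p = 0.523; exact permutation p = 0.0567). Its lowest values were those of FS 3, FS 6 and FS 8, which also had the highest striatal scores among FS arrays. The other Golgi members, Man1a1 and Man1a2, had differences of -0.05 ± 0.11 and -0.03 ± 0.09.

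The Man2 symbols hold enzymes of several compartments. The Golgi mannosidases Man2a1 and Man2a2, which make the last trimming step before complex branching, had differences of 0.02 ± 0.10 and 0.02 ± 0.05, and lysosomal Man2b1 had -0.02 ± 0.05. Man2c1, the cytosolic enzyme that degrades free oligosaccharides, had values of 5.31, 5.52 and 5.82 in FS and 5.61, 5.70 and 6.09 in Control arrays. In all, 5 of its 8 FS arrays lay below every Control array, and the difference was -0.19 ± 0.08 (limma p = 0.0394, adjusted p = 0.523; exact permutation p = 0.0505).

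None of the 8 Mgat genes, for the N-acetylglucosaminyltransferases that start the branches, had an unadjusted p under 0.05. Mgat5b, a brain-enriched branching enzyme that acts on O-mannosyl glycans, had the lowest difference, -0.24 ± 0.11 (adjusted p = 0.532 in limma), with values of 6.17, 6.69 and 6.85 in FS and 6.46, 6.86 and 7.04 in Control arrays. Its N-glycan relative Mgat5 had -0.18 ± 0.11. The enzymes that open the first branches, Mgat1 (-0.04 ± 0.05) and Mgat2 (0.01 ± 0.09), and Mgat3 (-0.04 ± 0.07), which adds the bisecting residue, lay near 0. Mgat4a had the highest difference, 0.05 ± 0.08, and Mgat4b and Mgat4c lay between.

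Among the galactosyltransferases, B4galt3, an enzyme that adds galactose to N-glycan branches, had the smallest p of all 64 genes. Its values were 7.94, 8.09 and 8.34 in FS and 8.19, 8.30 and 8.45 in Control arrays. FS arrays formed the lower range, with FS 1 and FS 4 inside the Control range. The difference was -0.19 ± 0.06 (limma p = 0.00586, adjusted p = 0.503; exact permutation p = 0.00699), and it ranked 128 by p among all probe sets tested. B4galt7 adds the first galactose of the linker that joins proteoglycan chains to their proteins. Its values were 4.67, 4.76 and 5.15 in FS and 4.81, 5.04 and 5.10 in Control arrays, a difference of -0.17 ± 0.07 (limma p = 0.0309, adjusted p = 0.520; exact permutation p = 0.0406). Here 2 FS arrays lay above all Control arrays, and Control 1 alone lay low among the controls. B3galt6, which adds the next galactose of that linker, had -0.17 ± 0.09 (exact permutation p = 0.0959). B4galt2 had -0.21 ± 0.13, the lactosylceramide synthase genes B4galt5 and B4galt6 had -0.07 ± 0.07 and -0.06 ± 0.08, and B4galt4 had 0.02 ± 0.08. Over the 6 B4galt genes the median was -0.12.

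The other B3galt genes spread widely. B3galt5, for an enzyme of type 1 chains, had the highest difference of all members, 0.34 ± 0.21 (adjusted p = 0.566 in limma, exact permutation p = 0.152), with values of 4.27, 4.82 and 5.43 in FS and 4.17, 4.37 and 5.67 in Control arrays. The highest value of both groups was that of Control 6. Without that array the difference was 0.51 ± 0.15, with an unadjusted limma p under 0.05, and without FS 8 it was 0.26, with a p above it. B3galt2 had -0.10 ± 0.17 and B3galt1 -0.03 ± 0.08. Of the B3gnt enzymes, which extend chains of repeated disaccharides, B3gnt2 had 0.17 ± 0.11 and B3gnt7 -0.03 ± 0.06.

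Sialyl- and fucosyltransferase genes gave no unadjusted p under 0.05. The St3gal genes ran from St3gal2 (-0.09 ± 0.08), a ganglioside enzyme, to St3gal4 (0.09 ± 0.07), and St3gal5, whose product starts the ganglioside series, had -0.08 ± 0.08. St6gal1 and St6gal2, which cap N-glycans, had -0.05 ± 0.08 and -0.17 ± 0.16. Of the St8sia genes, St8sia3 had 0.12 ± 0.09, and St8sia4, the polysialyltransferase of the neural cell adhesion molecule, had 0.07 ± 0.13. St8sia1, for the enzyme that opens the b-series gangliosides, had -0.09 ± 0.08. St8sia5, which adds sialic acid to complex gangliosides, had values of 7.13, 8.16 and 8.50 in FS and 7.51, 8.38 and 8.55 in Control arrays. Most arrays of both groups lay near the top of these ranges, and FS 3, FS 6, FS 8 and Control 6 lay far below. The difference was -0.34 ± 0.21 (exact permutation p = 0.151). It was -0.45 without Control 6, with an unadjusted limma p under 0.05, and -0.22 without FS 8, with a p above it. Fut8, which adds the core fucose of N-glycans, had -0.08 ± 0.07, Fut11 had -0.05 ± 0.07 and Fut9, the enzyme of the Lewis x structure in brain, had -0.004 ± 0.10.

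The 11 Galnt genes had 6 positive and 5 negative differences and a median of 0.02. Galnt6 is named by the platform annotation alone, since its gene ID was not found in the RefSeq gene table. It had values of 4.45, 4.66 and 5.18 in FS and 4.16, 4.51 and 4.72 in Control arrays. It exceeded the Control mean in 7 FS arrays, FS 4 being the highest, while 3 Control arrays (2, 3 and 7) lay below every FS array. The difference was 0.26 ± 0.10 (limma p = 0.0208, adjusted p = 0.514; exact permutation p = 0.0306). Galnt9, a brain-expressed member, had the largest difference in size of all 64 genes, -0.45 ± 0.30 (exact permutation p = 0.208), with values of 5.51, 7.01 and 7.61 in FS and 6.03, 7.49 and 7.71 in Control arrays. Its lowest arrays were FS 3, FS 8 and Control 6. The difference was -0.62 without Control 6, with an unadjusted limma p under 0.05, and -0.26 without FS 3, with a p above it. Galnt17 had -0.30 ± 0.16 (exact permutation p = 0.108), and the neuronal Galnt13 had 0.19 ± 0.18. Galnt1 (0.10 ± 0.07), Galnt2 (0.07 ± 0.06), Galnt11 (0.05 ± 0.05) and Galnt18 (0.02 ± 0.06) were slightly positive, and Galnt7 (-0.08 ± 0.09), Galnt14 (-0.11 ± 0.13) and Galnt16 (-0.09 ± 0.08) slightly negative.

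**Figure D2:**
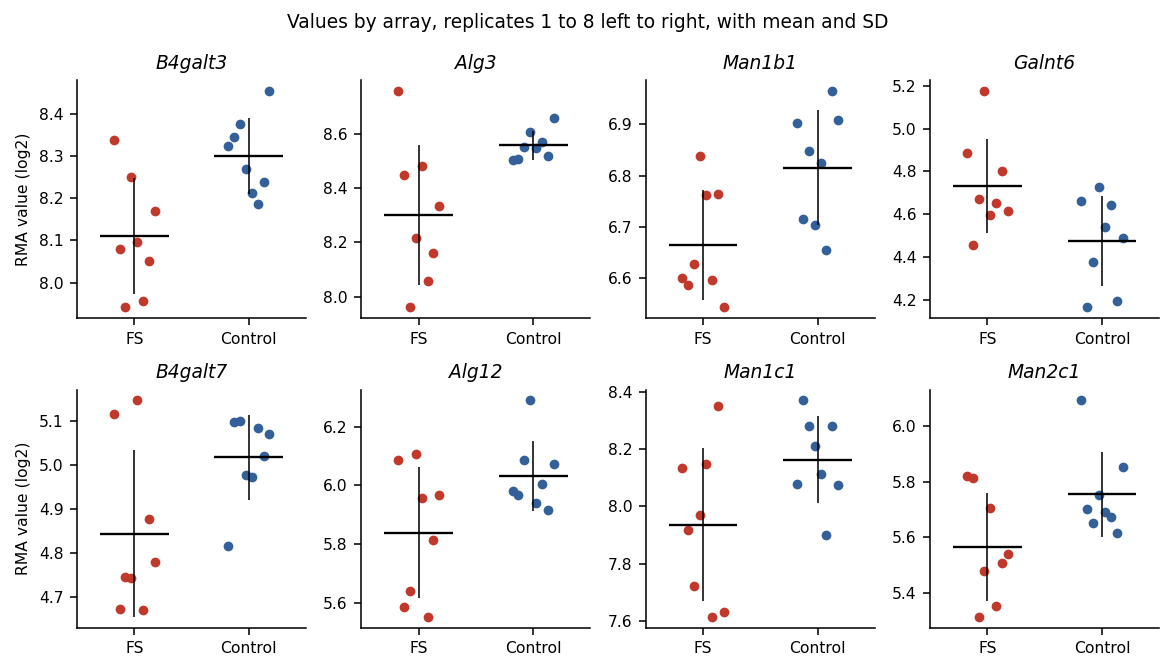
RMA values (log2, vertical axis, not starting at 0) of the 8 genes with an unadjusted p under 0.05, with 1 point per array, replicates 1 to 8 from left to right, and lines for the mean and SD of the 8 FS and 8 Control arrays. The groups overlap in every panel, and in Alg3 the FS values spread from 7.96 to 8.76 while the Control values stay between 8.50 and 8.66.

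These 8 genes rested on the arrays to different degrees. With each array left out in turn, the unadjusted limma p stayed under 0.05 in all 16 fits for Alg3, Man1b1, B4galt3 and Galnt6. It did so in 9 fits for Alg12, 8 for Man1c1, 8 for Man2c1 and 7 for B4galt7, with all differences still negative. The genes that held in all fits had the smallest limma p over all arrays (0.0208 or less, against 0.0309 or more). Holding thus partly restates how far p began below 0.05. The highest p was 0.0837 for Alg12 and 0.0857 for Man1c1 without FS 6, 0.0890 for Man2c1 without Control 1 and 0.0653 for B4galt7 without FS 6. The p was at or above 0.05 without FS 2, 3, 6 or 7 or Control 3, 4 or 8 for Alg12, without FS 2, 3, 6 or 8 or Control 2, 3, 4 or 7 for Man1c1, without FS 3, 4, 6, 7 or 8 or Control 1, 4 or 8 for Man2c1, and without FS 2, 3, 4, 6 or 8 or Control 2, 3, 6 or 8 for B4galt7. The count of 7 lower genes was 3 without FS 3 or without FS 6, 4 without Control 3 or without Control 8, and 11 without Control 6. Over all probe sets the count moved the same way, from 644 lower to 363 without FS 3 and 1176 without Control 6. FS 3 and FS 6 are also the arrays with the highest meningeal scores (1.48 and 0.64). FS 3 had the highest striatal score among FS arrays as well (1.30). The part of these scores in the counts was not tested. The count of 1 higher gene was 2 without FS 1 or without FS 2, and 3 without Control 6. Over all probe sets, 414 higher became 694 without Control 6. An exact permutation p under 0.05 was found in 5 of the 64 genes. Alg3, Man1b1, B4galt3 and B4galt7 were lower (6.25%, against 5.36% of all probe sets) and Galnt6 was higher (1.56%, against 3.41%).

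The sequences before the start sites of the 4 genes whose p held with every array left out are shown so that their composition can be compared. They are the 250 bases upstream of the annotated start in RefSeq (assembly GRCr8), read 5′ to 3′ on the gene's strand, at chr11:93804643-93804892 (Alg3, plus), chr13:86223647-86223896 (B4galt3, plus), chr3:28541841-28542090 (Man1b1, plus) and chr7:133694285-133694534 (Galnt6, minus). Capitals mark matches, on either strand, to the GC box GGGCGG, the TATA box TATAAA and the Golgi apparatus stress response element ACGTGGC. The other motifs searched were CCAAT, the ER stress response element, which is CCAAT and CCACG with 9 bases between and so contains CCAAT, and the unfolded protein response element TGACGTGG, which shares ACGTGG with the Golgi element.
Alg3: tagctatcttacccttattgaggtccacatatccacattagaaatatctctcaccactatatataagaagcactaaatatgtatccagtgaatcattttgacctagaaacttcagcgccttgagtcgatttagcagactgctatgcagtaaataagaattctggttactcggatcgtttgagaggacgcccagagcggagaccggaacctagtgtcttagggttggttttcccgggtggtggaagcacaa
B4galt3: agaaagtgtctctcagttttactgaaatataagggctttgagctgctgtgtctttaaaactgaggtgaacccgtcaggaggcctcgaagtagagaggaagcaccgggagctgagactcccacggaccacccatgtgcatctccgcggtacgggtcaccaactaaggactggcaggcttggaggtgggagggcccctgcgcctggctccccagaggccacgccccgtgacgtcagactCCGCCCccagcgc
Man1b1: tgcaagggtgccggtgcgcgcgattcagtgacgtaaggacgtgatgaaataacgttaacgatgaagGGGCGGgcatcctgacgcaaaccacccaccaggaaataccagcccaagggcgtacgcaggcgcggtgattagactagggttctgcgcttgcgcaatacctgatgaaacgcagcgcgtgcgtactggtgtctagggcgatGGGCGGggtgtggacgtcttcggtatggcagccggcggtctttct
Galnt6: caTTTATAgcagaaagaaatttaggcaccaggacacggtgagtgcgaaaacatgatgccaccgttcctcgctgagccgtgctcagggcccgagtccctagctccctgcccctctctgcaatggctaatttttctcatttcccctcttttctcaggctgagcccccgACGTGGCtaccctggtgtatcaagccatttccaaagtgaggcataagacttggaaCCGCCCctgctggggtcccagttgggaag
The window of Alg3 held none of these letters and had a GC content of 43.2%, against 60.0% for B4galt3, 59.2% for Man1b1 and 54.8% for Galnt6. The window of Galnt6 was matched by symbol only. Of the 64 genes, 55 had a window in the RefSeq table. Their median GC content was 61.6%, against 51.2% over all 33469 windows, and the GC box was in 65.5% of them, against 30.5% of all windows. CCAAT was in 34.5%, against 34.0% of all windows, and TATAAA in 5.45%, against 12.9%. The ER stress response element was in 0 of the 55 windows (0.0657% of all windows), and so was the unfolded protein response element (0.52% of all). The Golgi element was in Galnt6 alone, 1.82% of the 55 windows and 2.0% of all windows. The 33469 windows were not limited to the genes tested here, and a comparison with tested genes alone was not made. A match is a run of letters, not a measured binding site.

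The values of several members followed the marker scores from array to array. Over 192 relations (64 genes and 3 scores, 16 arrays, 100000 permutations, Benjamini-Hochberg adjustment over all 192), an adjusted p of r under 0.05 was found for 25 genes with the glutamatergic score, 18 positive and 7 negative. At the same raw permutation p (0.0142 or less), 21.5% of all probe sets were positive and 11.2% negative, against 28.1% and 10.9% of the 64 genes. With the striatal score there were 23 genes, 5 positive and 18 negative (7.81% and 28.1%), against 10.5% and 20.2% of all probe sets. With the myelin score there were 10, 2 positive and 8 negative (3.12% and 12.5%), against 4% and 5.95% of all probe sets. Whether these shares differ was not tested. The scores are not independent of each other. Their r was -0.911 between striatal and glutamatergic, 0.627 between striatal and myelin, and -0.600 between myelin and glutamatergic. An r above 0.7 was seen in 21.9% of the 64 genes with the glutamatergic score (15.4% of all probe sets), in 3.12% with the striatal score (6.03%) and in 1.56% with the myelin score (1.59%). An r below -0.7 was seen in 6.25% with the glutamatergic score (6.64% of all probe sets), in 21.9% with the striatal score (13.5%) and in 1.56% with the myelin score (1.2%).

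St8sia5 and Galnt9 had the highest correlations with the glutamatergic score. For St8sia5, Pearson's r was 0.974 (permutation p = 1e-05, the smallest these permutations can give, adjusted p = 0.000274), and by ranks, as Spearman's rho, it was 0.894 (permutation p = 5e-05, adjusted p = 0.00137). Pearson's r was 0.995 within FS and 0.942 within Control arrays, and 0.941 over the arrays other than FS 3 and FS 8, whose scores lay farthest from the median. The r within Control arrays leans on Control 6, with a score of -0.78 and a St8sia5 value of 7.51. The other Control arrays had scores of 0.01 to 0.48 and values of 8.27 to 8.55, and r without Control 6 was not computed. For Galnt9, r was 0.973 (permutation p = 1e-05, adjusted p = 0.000274) and rho 0.862 (permutation p = 7e-05, adjusted p = 0.00168), with 0.946 over the arrays other than FS 3 and FS 8. Mgat5b followed, with an r of 0.906 (permutation p = 2e-05, adjusted p = 0.000349) and a rho of 0.832 (permutation p = 0.00016, adjusted p = 0.00279), and an r of 0.792 without FS 3 and FS 8. The arrays with few glutamatergic marker transcripts were thus those with low values of these 3 genes, Control 6 included. Control 6 stayed in every set that left out FS 3 and FS 8.

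At the other end of that score stood B3galt5, with an r of -0.873 (permutation p = 0.00011, adjusted p = 0.00124), a rho of -0.70 (permutation p = 0.00314, adjusted p = 0.0216) and an r of -0.798 without FS 3 and FS 8. Galnt13 (r = -0.784, adjusted permutation p = 0.00595) and B4galt4 (r = -0.761, adjusted permutation p = 0.00543) had a negative r as well, but their rho of -0.391 and -0.547 had adjusted permutation p-values of 0.250 and 0.0910. With the striatal score the lowest r were those of Galnt17, Galnt9 and B4galt6. For Galnt17, r was -0.914 (permutation p = 2e-05, adjusted p = 0.000349), rho was -0.797 (permutation p = 0.00038, adjusted p = 0.00521) and r was -0.887 over the arrays other than Control 6 and FS 3. For Galnt9 and B4galt6, r was -0.911 and -0.877 (adjusted permutation p = 0.000274 and 0.000349). The highest were those of B3galt5, B3gnt2 and Galnt13 (0.853, 0.746 and 0.699, adjusted permutation p = 0.000886, 0.00708 and 0.0164). Their rho was 0.694, 0.65 and 0.456, with adjusted permutation p-values of 0.0268, 0.0393 and 0.171. For Galnt13, r was 0.474 without Control 6 and FS 3.

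Galnt6 had the highest r with the myelin score, 0.785 (permutation p = 0.00012, adjusted p = 0.00128), with a rho of 0.724 (permutation p = 0.00223, adjusted p = 0.0195). The r was 0.403 within FS and 0.896 within Control arrays, and 0.585 over the arrays other than Control 2 and Control 7, which lay farthest out. Controls 2, 3 and 7 had both the lowest myelin scores and the lowest Galnt6 values. B3galt5 (0.620, adjusted permutation p = 0.0386) and Man2a2 (0.536, adjusted permutation p = 0.0807) came next by r. By ranks B3galt5 stood above Galnt6, with a rho of 0.832 (permutation p = 0.00016, adjusted p = 0.00279). The r of B3galt5 was 0.805 within FS and 0.497 within Control arrays. The lowest r were those of Galnt17 (-0.727), St6gal2 (-0.693) and B4galt2 (-0.666), with adjusted permutation p-values of 0.00512, 0.0160 and 0.0276.

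**Figure D3:**
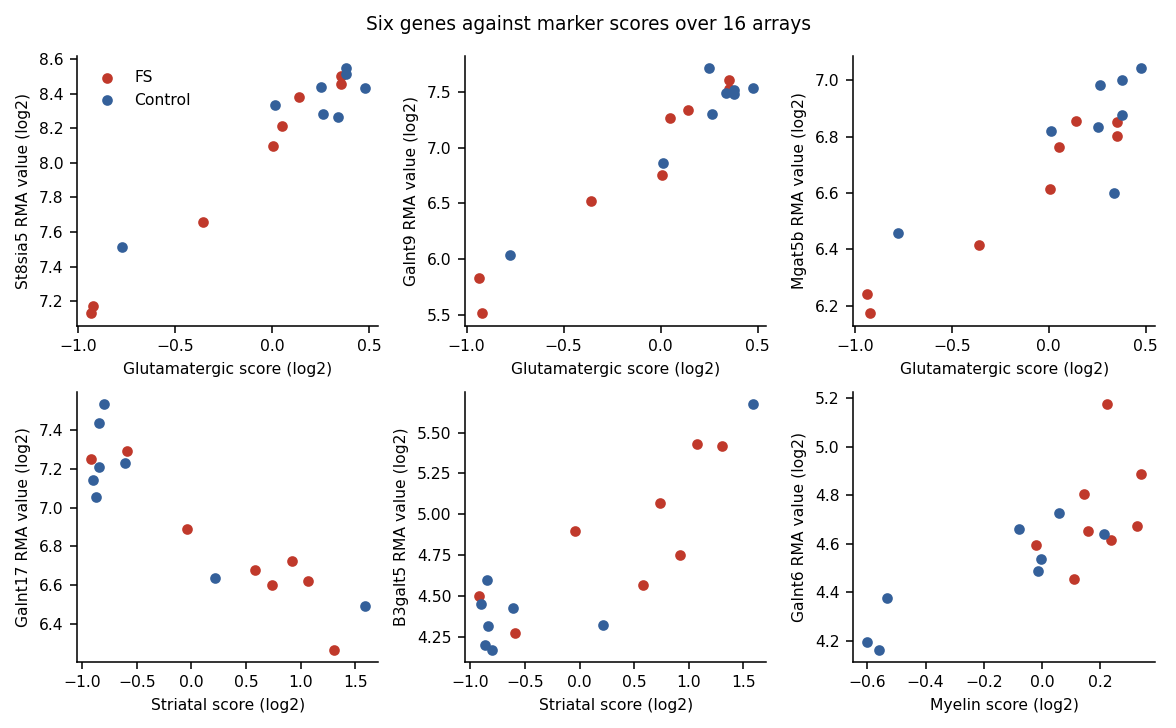
RMA values (log2, vertical axis) of St8sia5, Galnt9, Mgat5b, Galnt17, B3galt5 and Galnt6 against a marker score (log2, horizontal axis), with 1 point for each of the 8 FS and 8 Control arrays. FS 3, FS 8 and Control 6 lie at the low end for St8sia5 (7.17, 7.13 and 7.51), and in the Galnt6 panel r is 0.403 within FS and 0.896 within Control arrays.

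With a marker score as a covariate, several of these differences were smaller in size. With the striatal score in the limma fit, St8sia5 had a difference of 0.01 ± 0.13, Galnt9 of 0.11 ± 0.15, Mgat5b of -0.07 ± 0.09 and B3galt5 of 0.002 ± 0.13. With the myelin score, Galnt6 had 0.03 ± 0.10. Man1c1 had -0.06 with either score. Alg3 and B4galt3 kept most of theirs, with -0.21 ± 0.10 and -0.16 ± 0.07 under the striatal score and -0.28 ± 0.12 and -0.18 ± 0.08 under the myelin score, each with an unadjusted limma p under 0.05. Man1b1 had -0.11 ± 0.06 and -0.09 ± 0.07. The median over the 64 genes was -0.004 with the striatal score and 0.02 with the myelin score, and 2 genes and 3 genes were lower at an unadjusted p under 0.05. Over all probe sets the medians were -0.0015 and 0.0015. The count of lower probe sets fell from 644 to 241 and 175, so the fall was not particular to these genes. St8sia5, Galnt9, Mgat5b, B3galt5 and Galnt6 were among the strongest correlations with a score, so their smaller differences add little to those correlations. The scores themselves differed between the groups, by 0.77 (striatal) and 0.38 (myelin). These fits therefore cannot separate cell makeup from group, and its part in the group differences was not tested. No fit held the glutamatergic or the meningeal score.

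**Figure D4:**
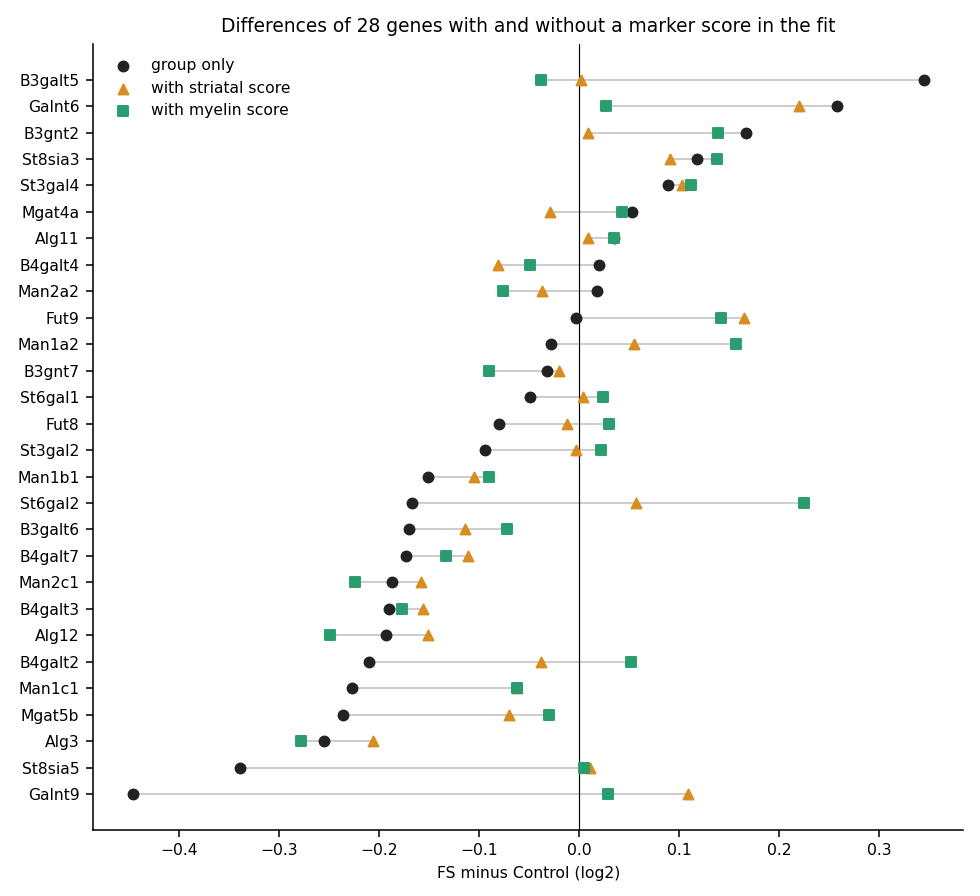
Difference of FS minus Control (log2, horizontal axis) for the 28 genes picked by p-value or as the extremes of a family, from a limma fit with group only (circles), with the striatal score (triangles) and with the myelin score (squares). Galnt9 lies at -0.45, 0.11 and 0.03 in the 3 fits, while Alg3 lies at -0.26, -0.21 and -0.28.

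The genes also differed in how much they varied. The SD over all 16 arrays had a median of 0.170 and ran from 0.0747 to 0.695 in Galnt9, followed by St8sia5 and B3galt5. The SD was larger in FS than in Control arrays in 47 of the 64 genes (73.4%), against 59.8% of all probe sets. The median SD of the 64 genes was 0.190 in FS and 0.143 in Control arrays, against 0.151 and 0.137 over all probe sets.

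Pathway genes that do not carry these symbols were read from lists of the same pathway, 76 genes in all. Of these, 29 had a positive and 47 a negative difference, with a median of -0.02, the same as over all probe sets. None had an adjusted p under 0.05 in limma, and at an unadjusted p under 0.05 there was 1 higher and 6 lower. Of all probe sets, 3.65% were higher and 5.67% lower at that threshold, and whether any list departs from these shares was not tested. In donor assembly (9 of 11 measured) the one called was Dolpp1, a dolichol pyrophosphate phosphatase (-0.17 ± 0.08, adjusted p = 0.523 in limma). In the oligosaccharyltransferase, which moves the chain to protein (11 of 12 measured), the small subunit gene Ost4 was the one higher (0.13 ± 0.05, adjusted p = 0.509 in limma) and Ddost had -0.11. Glucose trimming, lectins and mannose trimming in the ER (13 of 15 measured) had none, with the cargo receptor genes Mcfd2 (-0.12) and Lman1 (-0.11) lowest. Of 15 measured genes of 23 for sugar nucleotide synthesis, Gfus, for the GDP-fucose synthase, was called (-0.20 ± 0.10, adjusted p = 0.528 in limma), and Pmm1, a phosphomannomutase, had -0.18. The 9 measured of 10 sugar nucleotide transporters had none, with Slc35c2 at -0.13 and the UDP-galactose transporter gene Slc35a2 at -0.11. Of 19 measured among 35 other Golgi transferases, 4 were lower at that threshold. These were Pomgnt1, which extends O-mannosyl glycans (-0.17 ± 0.05, adjusted p = 0.501 in limma), B4galnt4 (-0.27 ± 0.11), the mucin-type core enzyme gene C1galt1 (-0.24 ± 0.11) and the ganglioside enzyme gene B4galnt1 (-0.19 ± 0.09). Ugcg, for the synthase of glucosylceramide, had -0.26 ± 0.13 (adjusted p = 0.540 in limma). Pomgnt1, C1galt1 and B4galnt1 are named because they were counted, after their values had been seen.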

How the data were processed

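PFC arrays of 8 FS and 8 Control rats were grouped by the sample labels. Per the methods of the study, the authors used oligo (version 1.58.0) to read the scanner files and applied RMA, and the deposited values are on a log2 scale. The table held 29214 probe sets, of which 18644 had 1 gene symbol in the platform annotation, 962 several and 9608 none. Array medians lay between 4.05 and 4.15, and correlations between arrays between 0.981 and 0.997. No 2 arrays held identical values.

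The test took in every probe set that had 1 symbol and averaged above 4 across the 16 arrays (11352 probe sets of 10423 genes), after the authors' filter on values above 4. The probe set with the highest mean stood for a gene. Of the 64 genes, all but Galnt6 (63) were found by gene ID in RefSeq (GRCr8), under the same symbol. Group was the only term of the fit, made in R (version 4.3.3) by lmFit and eBayes of limma (version 3.58.1), with FS set against Control and Benjamini-Hochberg adjustment over all probe sets tested. SEs are limma's moderated ones, and p-values are two-sided. Exact permutation tests ran over all 12870 assignments of 16 arrays to groups of 8, where the smallest p is 0.000155. The scripts were tested on simulated data.

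The members and lists were chosen with earlier results of these data known. Named genes are those with an unadjusted p under 0.05, the extremes of each of the 12 families, up to 2 genes of each pathway list with the largest difference in size, the 3 genes on either side of the minimum, and the 3 highest and 3 lowest correlations with each score; the other members are given by value only. Alternatives were other filters, centred arrays, other probe set rules, a trended and robust prior, array weights, a block for the replicate number, leaving out single arrays, and a covariate (the striatal or the myelin score). Leaving out Control 6 and FS 3 together was added after seeing the data.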

Additional observations from a re-analysis of the deposited data

Results flagged for a closer look

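In 9 of 128 sets of 8 values (64 genes in 2 groups), the highest or lowest array stood apart by more than Dixon's critical share of the group's range. At that value, chance alone is expected to flag about 5% of such sets. The sets share the same arrays and are not independent, and the share of flags over all probe sets was not counted. There were 2 flags in FS and 7 in Control arrays.

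Control 6, the array with the highest striatal score, stood apart in 5 of them. It was high in B3galt5 (5.67, against 4.60 for the next Control array), Galnt13 (7.87) and Man2a2 (8.41), and low in Mgat2 (5.15) and in St8sia5 (7.51, against 8.27 for the next). Control 4 was high in Alg12 (6.29), and Control 1 was low in B4galt7 (4.81). Among FS arrays, FS 8 was high in Man2a2 (8.33) and FS 7 was high in Galnt7 (5.70).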

How the results depend on the processing

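No member passed an adjusted p of 0.05 in limma in the fit reported or in any of the 28 alternatives. In place of 1 gene higher and 7 lower at an unadjusted p under 0.05, 2 and 2 were counted with the striatal score as a covariate, and 0 and 3 with the myelin score. The myelin score also gave 26 genes below 0 (43 in the fit without it) and a median of 0.023. A mean above 5 takes out Galnt6 (mean of 4.60), the one gene higher, and B4galt7 (4.93) before any test, so its count of 0 genes higher shows nothing about Galnt6. Array weights gave 2 genes higher, and leaving out Control 6 and FS 3 together gave 2. Leaving out single arrays gave 1 to 3 genes higher and 3 to 11 lower, 39 to 45 below 0 and medians of -0.07 to -0.03. There were 3 lower without FS 3 or without FS 6, 4 without Control 3 or without Control 8, and 11 without Control 6. Of the single genes, Fut9, with a difference of -0.004, had 0.16 ± 0.06 with the striatal score. Centring the arrays gave 1 higher and 6 lower, 40 below 0 and a median of -0.03. Samples with the same replicate number did not deviate together in every pair (correlations of -0.31 to 0.49), and with the replicate block there was 1 gene higher and 8 lower, with 43 below 0 and a median of -0.05. Over all probe sets, 706 were higher with array weights (414 in the fit reported), 234 higher and 241 lower (644 reported) with the striatal score, 118 and 175 with the myelin score, and 282 to 694 and 363 to 1176 with single arrays left out. A single probe set (1), of no member, passed the adjusted threshold without FS 2, and 1 without Control 6 and FS 3. Apart from the genes taken out by the mean above 5, the cause of these changes was not tested.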
